A study of Arabidopsis thaliana with 4 samples.

Results

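The 37 probe sets described here are those with the strongest signals in Columbia leaves among probe sets that the platform annotation pairs with exactly 1 nuclear gene. They were chosen by their Columbia signal alone: a probe set was taken when its linear signal was 4000 or more on both Columbia arrays, and each of the 37 stands for a different gene. The rule sets aside 1 further gene that reaches this signal, AT3G22240. They are 37 of 22746 probe sets on the array, and 37 of the 13216 nuclear genes that have a probe set of their own in the annotation. In all, 181 probe sets reached 4000 on both Columbia arrays. Of these, 110 are not named in the annotation used here, 28 belong to chloroplast genome genes and 5 to several genes, so the 37 are the named part of the brightest nuclear signals and not a full list of abundant leaf transcripts.

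The arrays measured total RNA of expanded leaves of Arabidopsis thaliana plants kept in short days. Of the 4 arrays, 2 came from jaw-D, a mutant in which the microRNA miR319a is overexpressed, and 2 from Columbia, the accession against which it was set. The sources used here give neither plant age nor the number of plants behind an array, nor whether replicates came from separate plants. A p-value here therefore measures only the spread between these arrays, which may be technical. The microRNA directs the cutting of several TCP mRNAs, whose products restrain growth of the leaf blade, and jaw-D leaves are known for their wavy, uneven blade.

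A leaf that has finished expanding is mainly a photosynthetic organ. Its nuclear genome encodes most proteins of the light-harvesting antenna, many subunits of the photosystems and of the chloroplast ATP synthase, and nearly all enzymes that fix carbon, and these proteins are imported into the chloroplast, whose own genome supplies the remaining subunits. Photorespiration recovers carbon from the oxygenation side reaction of Rubisco and passes through chloroplast, peroxisome and mitochondrion.

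Signals are probe-set brightness on a linear scale, and they depend on how well each probe binds as well as on transcript amount. The order of the 37 is therefore an order of brightness and does not rank transcripts. The 37 held 3.79% and 3.33% of the summed signal on jaw-D arrays 1 and 2, and 3.73% and 4.06% on Columbia arrays 1 and 2. Their median signal was 6326 and 5394 on the jaw-D arrays, against 6067 and 6459 on the Columbia arrays. On the brightest end of the scale the second array of each genotype thus moved in opposite directions, dimmer in jaw-D and brighter in Columbia.

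Whole arrays showed the same pattern at their bright end while their centres stayed level. The median over all probe sets was 74.6 and 76.5 in jaw-D and 76.7 and 77.2 in Columbia, and the 99th percentile was 3462 and 3299 in jaw-D and 3520 and 3611 in Columbia. The 25S rRNA control read 2760 and 408 on jaw-D arrays 1 and 2, against 3146 and 800 on Columbia arrays 1 and 2, so it followed the array number in both genotypes, which the 37 genes did not. Of the leaf markers, only LHCB4.1 and RCA are named in the annotation, and both are among the 37 by the rule. The root markers PYK10, EXPA7 and EXPA18 were dim, each between places 13661 and 18508 of 22746 probe sets. Their summed signals were 72.5 and 70.2 in jaw-D and 92.0 and 79.2 in Columbia. Markers of flower, seed storage and phloem are not named in this annotation and were not analysed here.

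**Figure D1:**
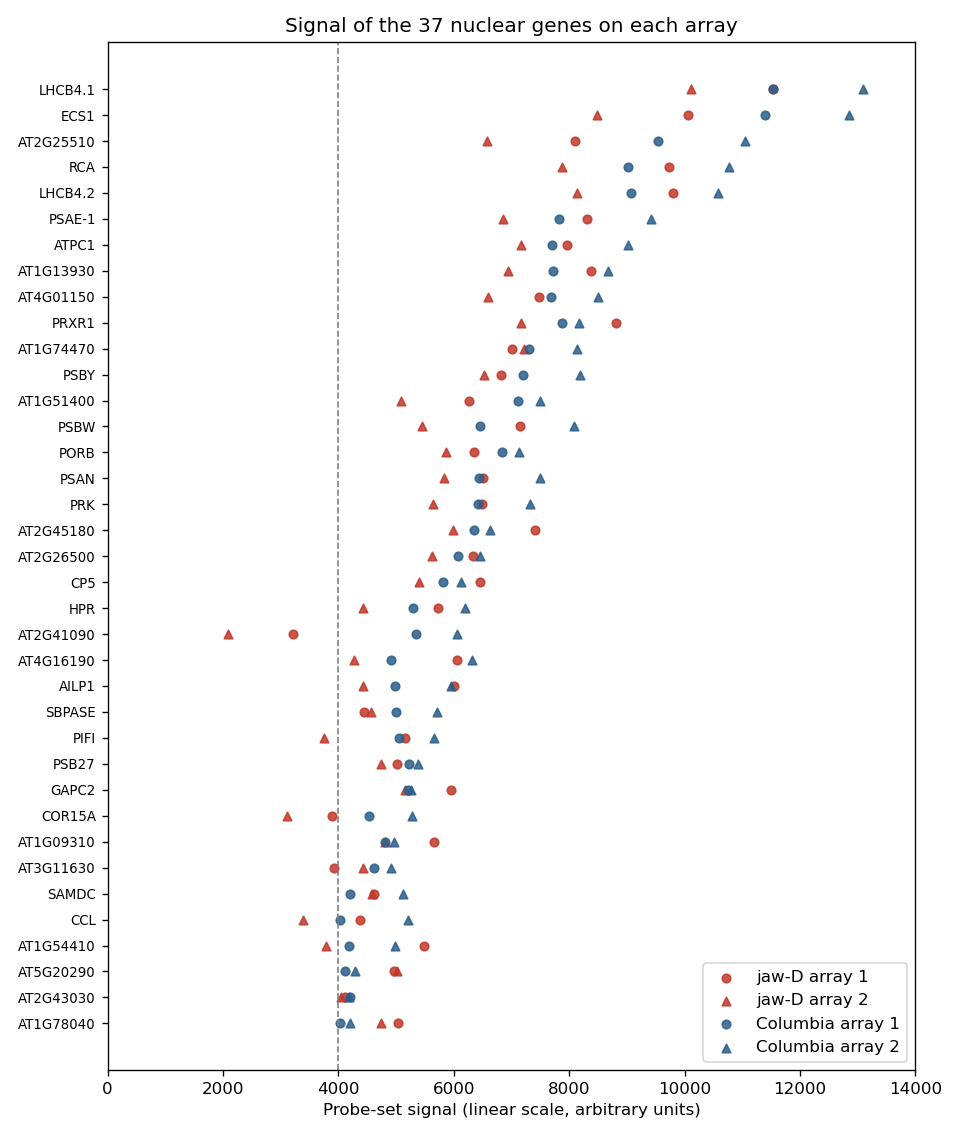
Signal of each of the 37 genes on each of the 4 arrays (horizontal axis, linear scale, arbitrary units), in order of the Columbia mean, with jaw-D in red, Columbia in blue, array 1 as circles and array 2 as triangles. The dashed line is the threshold of 4000 that both Columbia arrays had to reach, and AT2G41090 lies furthest below it in jaw-D, at 3214 and 2089.

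In jaw-D, whose arrays the rule did not use, 31 of the 37 genes again read 4000 or more on both arrays. The other 6 were AT2G41090, COR15A, PIFI, CCL, AT1G54410 and AT3G11630. Of these, 2 were under 4000 on both jaw-D arrays, AT2G41090 and COR15A. The mirror rule, 4000 or more on both jaw-D arrays, took 32 named nuclear probe sets, of which 31 were the genes already listed. The 1 addition was AT5G62350, at 5205 and 4065 in jaw-D and 4047 and 3883 in Columbia.

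By rank of signal among all 22746 probe sets, the 37 lay between places 7 and 262 on jaw-D array 1 and between 4 and 488 on jaw-D array 2. On the Columbia arrays, where the rule confines them, they lay between places 2 and 186 and between 10 and 194. The lowest place on both jaw-D arrays belonged to AT2G41090. Across the 37 genes, the mean log2 signals of the genotypes had a Pearson correlation of 0.854, a description over genes that share the same 4 arrays and the same floor on the Columbia side.

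None of the 37 genes differed between jaw-D and Columbia by the test across the whole array. With limma on log2(signal + 16) and Benjamini-Hochberg adjustment over 22746 probe sets, 0 were higher in jaw-D and 0 were lower at the threshold of 0.05. Over all probe sets 0.189% were called, 0.0352% higher and 0.154% lower. The smallest adjusted p among the 37 was 0.188. At an unadjusted p under 0.05 there were 3, all lower in jaw-D, against 13.0% of all probe sets. Since high Columbia readings chose the genes, their differences lean low by construction, and nothing is read from the count of lower ones.

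The median log2 difference over the 37, jaw-D minus Columbia, was -0.17, beside -0.04 over all probe sets and -0.15 over the 144 other probe sets that reach 4000 on both Columbia arrays. The range over the 37 was -1.13 to 0.25. The median was smaller than the step between replicate arrays: jaw-D array 2 minus jaw-D array 1 had a median of -0.24 over these genes, and Columbia array 2 minus Columbia array 1 had 0.18. With quantile normalization the median difference was -0.01, with 16 genes above 0 and 21 below, against 5 above and 32 below as deposited. Leaving out 1 array moved it to -0.05 (Columbia array 2 or jaw-D array 2 left out), to -0.26 (Columbia array 1 left out) or to -0.25 (jaw-D array 1 left out). A direction common to the 37 genes thus depends on how the bright ends of the arrays are matched.

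**Figure D2:**
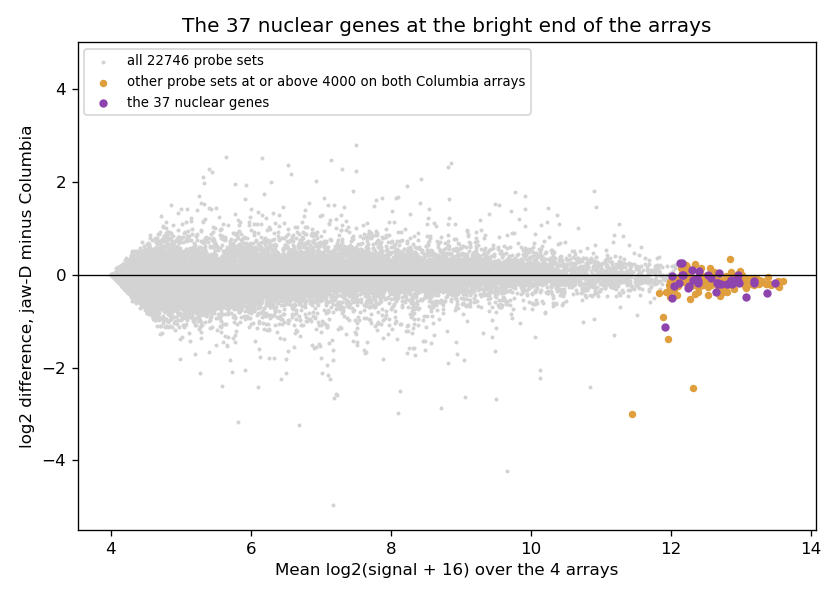
Log2 difference of every probe set, jaw-D minus Columbia (vertical axis), against its mean log2(signal + 16) over the 4 arrays (horizontal axis). The 37 nuclear genes lie at the bright end among the 144 other probe sets with 4000 or more on both Columbia arrays, between -1.13 and 0.25, and mostly a little under 0, with a median of -0.17.

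For 36 of the 37 genes the 95% interval of the log2 difference from limma lay inside -1 to 1, that is within 2-fold either way. The same held for 86.1% of all probe sets and for 91.5% of the brighter 11375 probe sets, those whose mean over the arrays reached the median. The exception was AT2G41090. The standard errors of the 37 ran from 0.14 to 0.24, with a median of 0.17. With quantile normalization the interval lay inside these bounds for 36 again, against 139 of the 144 and 87.1% of all probe sets. Differences smaller than these intervals are undecided.

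The groups overlapped for 21 of the 37 genes. For 14 both jaw-D signals were under both Columbia signals, beside 53 of the 144 other bright probe sets and 26.5% of all probe sets. For 2 they were above, beside 9 of the 144 and 17.5% of all probe sets. With quantile normalization 7 lay below and 7 above, against 21.1% and 20.6% of all probe sets.

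Replicate arrays differed in one direction across nearly all of the 37. Jaw-D array 2 was dimmer than jaw-D array 1 for 33 of 37 genes, and Columbia array 2 was brighter than Columbia array 1 for 36 of 37. The other 144 bright probe sets had medians of -0.16 for the step in jaw-D and 0.18 for the step in Columbia, in the same directions. After quantile normalization the median absolute difference between replicates over the 37 was 0.10 in jaw-D and 0.09 in Columbia. It was 0.09 and 0.07 over the 144 other bright probe sets, against 0.19 and 0.18 over all probe sets.

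**Figure D3:**
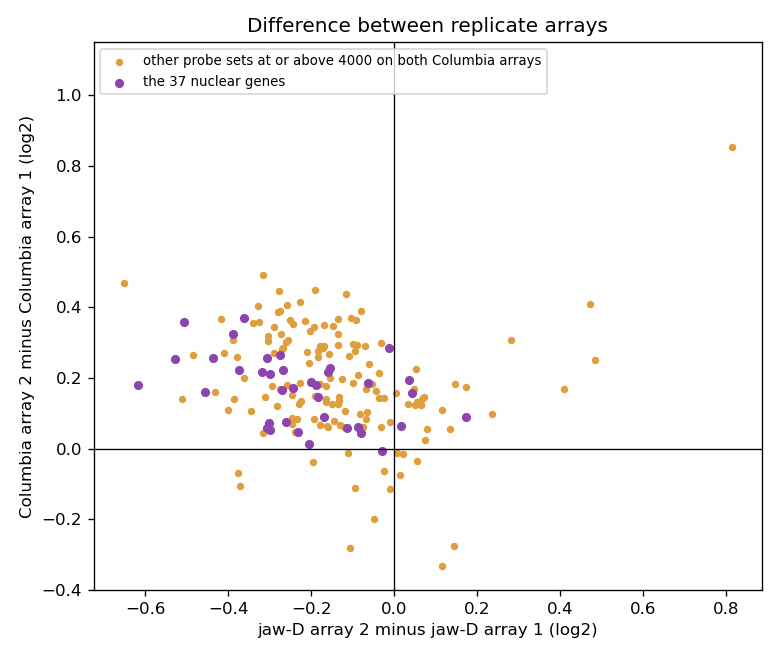
Log2 difference between the replicate arrays of jaw-D (horizontal axis, array 2 minus array 1) and of Columbia (vertical axis, array 2 minus array 1) for the 37 genes and for the 144 other probe sets with 4000 or more on both Columbia arrays. Most of the 37 sit in the upper left, dimmer on jaw-D array 2 (33 of 37) and brighter on Columbia array 2 (36 of 37).

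Genes of photosynthesis formed the largest listed group. Of 117 genes on 7 photosynthesis lists, 23 are named in the annotation and 15 of these are among the 37. None of the 23 passed the test in either direction. The 15 had log2 differences between -0.24 and -0.07, with a median of -0.18 and an SD across genes of 0.04, whereas the other 22 genes ran from -1.13 to 0.25 with a median of -0.09 and an SD of 0.30. With quantile normalization the 15 ran from -0.12 to 0.06 with a median of -0.02, 4 above 0 and 11 below. The 15 listed genes therefore kept close to one another, near the general level of the bright probe sets on the same arrays. This range covers only the listed genes among the 37. The 8 other named genes of these lists, all dimmer in Columbia than the threshold, ran from -0.95 for LHCB4.3 to 0.44 for AT2G35120. Among the other 22 of the 37 are chloroplast genes that the lists do not hold, such as PIFI at -0.28 and AT4G01150 at -0.20. The tables used here hold no gene descriptions, so the lists may miss further photosynthesis genes among these 22. The range of the 15 is therefore not that of every photosynthesis gene in the set.

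Both antenna genes of the set encode CP29, a minor antenna protein that passes light energy towards the core of photosystem II. LHCB4.1 read 11528 and 10115 in jaw-D and 11541 and 13089 in Columbia. Its jaw-D arrays lay just under the Columbia ones, with a log2 difference of -0.19 (SE 0.16, interval -0.59 to 0.21, adjusted p = 0.691 by limma) that became 0.01 with quantile normalization. LHCB4.2 read 9805 and 8144 in jaw-D and 9069 and 10577 in Columbia, and the groups overlapped. Its difference was -0.13, and 0.03 with quantile normalization. The third measured gene of the antenna list, LHCB4.3, was far dimmer and not among the 37. It read 251 and 314 in jaw-D and 632 and 495 in Columbia, a log2 difference of -0.95 (SE 0.20) that did not pass by limma (adjusted p = 0.183). Whether the probe sets of these related genes bind one another's transcripts was not tested.

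Photosystem II uses light to draw electrons from water, and 3 of its small nuclear-encoded proteins were in the set, which are all the measured genes of that list. PSBY read 6818 and 6524 in jaw-D and 7202 and 8191 in Columbia, with both jaw-D arrays lower. PSBW, a subunit of the reaction centre complex, read 7141 and 5453 in jaw-D and 6447 and 8086 in Columbia, with overlapping groups. PSB27, which assists assembly and repair of the complex, was the steadiest of the 3, at 5015 and 4746 in jaw-D and 5222 and 5384 in Columbia. Their log2 differences were -0.20, -0.21 and -0.12, none passing the test, with limma intervals reaching no further than -0.72 and 0.30.

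Electron transport and photosystem I gave 4 genes with overlapping groups. AT2G26500, which stands on the electron transport list, read 6326 and 5628 in jaw-D and 6067 and 6459 in Columbia. PSAE-1, a stromal subunit of photosystem I near the ferredoxin docking site, read 8301 and 6851 in jaw-D and 7826 and 9417 in Columbia. PSAN, a lumenal subunit on the plastocyanin side, read 6515 and 5834 in jaw-D and 6444 and 7487 in Columbia. ATPC1, the gamma subunit of the chloroplast ATP synthase, read 7969 and 7158 in jaw-D and 7700 and 9022 in Columbia. In all 4 genes only jaw-D array 1 reached above the lower Columbia array. Log2 differences were -0.07 for AT2G26500, -0.19 for PSAE-1, -0.17 for PSAN and -0.14 for ATPC1, and that of AT2G26500 turned to 0.05 with quantile normalization.

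AT4G01150 and PIFI, both thylakoid or chloroplast genes, stood outside the lists. Other unlisted genes of the set may be of this kind, since the tables used here hold no gene descriptions. AT4G01150, or CURT1A, shapes the curved margins of the thylakoid grana, and it read 7485 and 6587 in jaw-D and 7683 and 8505 in Columbia. PIFI, a chloroplast protein tied to electron flow into plastoquinone in the dark, read 5163 and 3759 in jaw-D and 5054 and 5652 in Columbia. Its low value came from jaw-D array 2 alone. The differences were -0.20 (SE 0.16) and -0.28 (SE 0.20) on the log2 scale.

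Carbon fixation gave 3 of its 4 measured genes. RCA, the Rubisco activase that frees inhibited Rubisco sites, read 9730 and 7869 in jaw-D and 9013 and 10770 in Columbia. PRK, which remakes the CO2 acceptor, read 6494 and 5645 in jaw-D and 6414 and 7318 in Columbia. Both overlapped between genotypes, with log2 differences of -0.17 and -0.18 that were -0.01 with quantile normalization. SBPASE, a regenerating phosphatase of the same cycle, read 4449 and 4562 in jaw-D and 4991 and 5716 in Columbia. It was lower on both jaw-D arrays, by a log2 difference of -0.24 (SE 0.15, adjusted p = 0.569 by limma). It was the lowest difference of the 15 photosynthesis genes. The other measured gene of the list, AT1G56190, was outside the 37, at 1225 and 1442 in jaw-D and 2057 and 1561 in Columbia, and its log2 difference of -0.43 did not pass by limma (adjusted p = 0.438).

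Chlorophyll synthesis gave PORB, a light-driven reductase of protochlorophyllide, and AT1G74470, the geranylgeranyl reductase that makes the phytyl tail. PORB read 6348 and 5868 in jaw-D and 6841 and 7131 in Columbia. AT1G74470 read 7007 and 7221 in jaw-D and 7298 and 8136 in Columbia. In both the jaw-D arrays were the lower ones, by log2 differences of -0.19 and -0.12, and that of AT1G74470 turned to 0.06 with quantile normalization. The other 2 measured genes of the list were dimmer, GSA1 with a difference of -0.21 and CHLM with 0.08.

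HPR, the peroxisomal hydroxypyruvate reductase, was the 1 photorespiration gene in the set out of 5 measured. It read 5732 and 4422 in jaw-D and 5300 and 6188 in Columbia, with overlapping groups and a log2 difference of -0.19 (SE 0.19). The 4 measured genes outside the 37 had differences of -0.16 for AT1G11860, 0.44 for AT2G35120, 0.11 for AT1G32470 and -0.17 for AT1G80380, none passing the test.

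**Figure D4:**
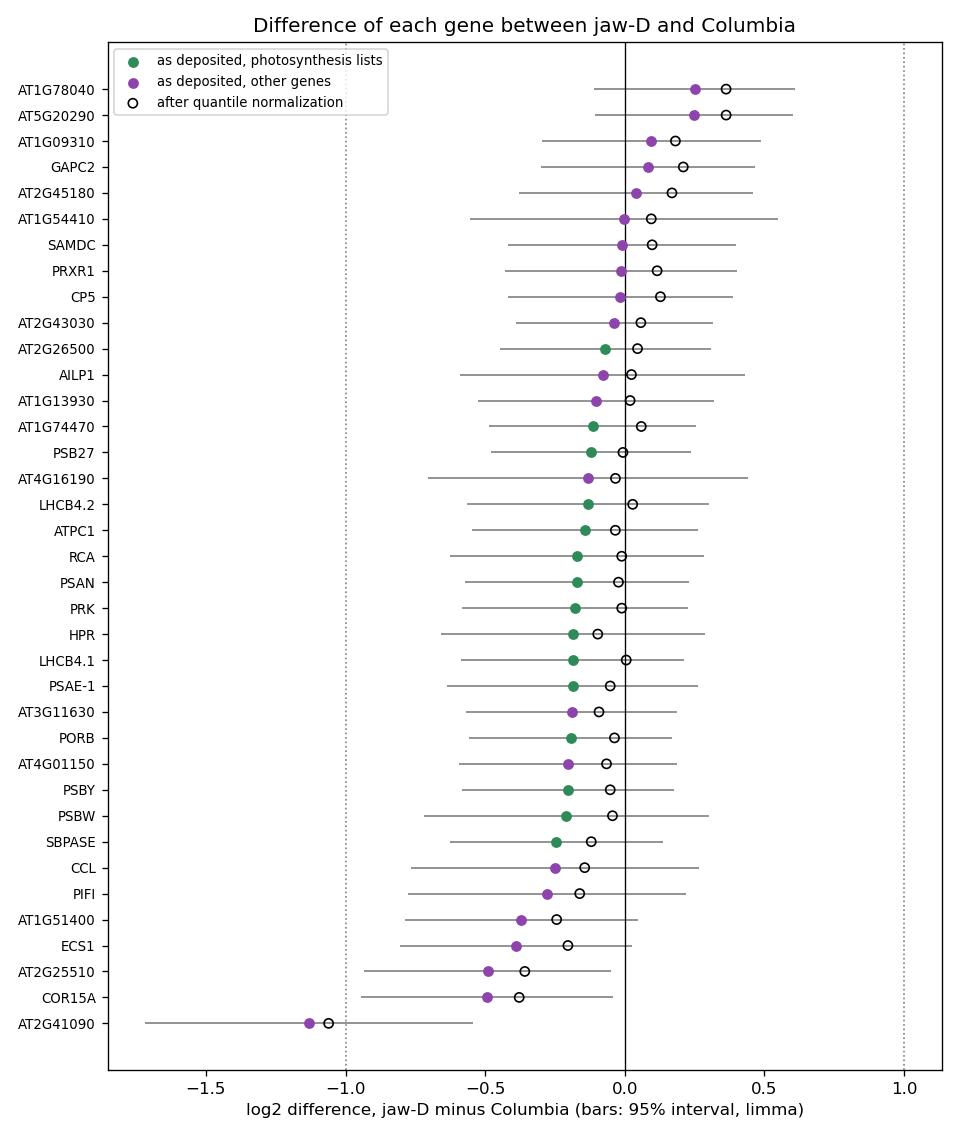
Log2 difference of each of the 37 genes, jaw-D minus Columbia (horizontal axis), with the 95% interval from limma as a bar, green for the 15 genes on the photosynthesis lists and purple for the other 22, and open circles for the same difference after quantile normalization. AT2G41090 stands apart at -1.13, and the 15 photosynthesis genes lie between -0.24 and -0.07.

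AT2G41090 had the largest difference of the 37. Neither the annotation nor the reference table used here gives it a name or a role. It read 3214 and 2089 in jaw-D and 5345 and 6061 in Columbia, so both jaw-D arrays lay well under both Columbia arrays. The log2 difference was -1.13 (SE 0.24, interval -1.72 to -0.54), a ratio of 0.457 on the log2(signal + 16) scale. It did not pass over all probe sets, with an adjusted p of 0.188 by limma and an unadjusted p of 0.00347. Tested only among the brighter 11375 probe sets, it passed with an adjusted p of 0.0294, the 1 call among the 37 there, where 2.56% of the probe sets were called. Its jaw-D arrays also differed most from each other among the 37, by -0.62 on the log2 scale, and the difference was -0.82 with jaw-D array 2 left out and -1.44 with jaw-D array 1 left out.

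COR15A, a cold-induced protein of the chloroplast stroma that protects membranes during freezing, read 3882 and 3107 in jaw-D and 4535 and 5279 in Columbia. The groups did not overlap, and the log2 difference was -0.49 (SE 0.18, interval -0.94 to -0.04) with an adjusted p of 0.348 by limma. COR15B, its close relative on the cold and water stress list, lay just under the threshold. It read 3059 and 2736 in jaw-D and 3747 and 4487 in Columbia, a difference of -0.50 (adjusted p = 0.316 by limma). The signals of these similar genes may not be independent, which was not tested. COR47, the other measured gene of that list, had a difference of -0.34 and overlapping groups, and 0 of the 3 passed in either direction. AT1G54410, the dehydrin HIRD11, is not on the list, and it read 5477 and 3795 in jaw-D against 4186 and 4990 in Columbia. Its jaw-D arrays enclosed both Columbia values, its ratio of jaw-D to Columbia was 0.998 as deposited, and the log2 difference was 0.09 with quantile normalization.

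The next lowest differences were in AT2G25510, ECS1 and AT1G51400. AT2G25510 read 8097 and 6581 in jaw-D and 9543 and 11052 in Columbia. ECS1, which encodes a cell wall protein, read 10052 and 8486 in jaw-D and 11398 and 12852 in Columbia. AT1G51400 read 6268 and 5085 in jaw-D and 7118 and 7492 in Columbia. All 3 had both jaw-D arrays below both Columbia arrays. Their log2 differences of -0.49, -0.39 and -0.37 did not pass by limma, with adjusted p of 0.341, 0.412 and 0.434. With quantile normalization they were -0.36, -0.20 and -0.24.

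Both genes with jaw-D above Columbia on all arrays lay near the threshold. AT5G20290 read 4963 and 5017 in jaw-D and 4108 and 4294 in Columbia. AT1G78040 read 5041 and 4745 in jaw-D and 4021 and 4195 in Columbia. Each had a log2 difference of 0.25, with intervals of -0.11 to 0.60 and -0.11 to 0.61 and an adjusted p of 0.534 by limma. Both differences were 0.36 with quantile normalization. They were the largest positive differences of the set.

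None of 4 further genes, for enzymes of primary metabolism, a peroxidase and an entry of the antioxidant list, passed the test. GAPC2, a cytosolic glyceraldehyde-3-phosphate dehydrogenase of glycolysis, read 5956 and 5162 in jaw-D and 5205 and 5256 in Columbia, a log2 difference of 0.08. SAMDC, the S-adenosylmethionine decarboxylase of polyamine synthesis, read 4620 and 4576 in jaw-D and 4198 and 5115 in Columbia, a difference of -0.01. The jaw-D values of SAMDC fell between the Columbia ones. PRXR1, a peroxidase, read 8820 and 7170 in jaw-D and 7877 and 8177 in Columbia, a difference of -0.01 that was 0.12 with quantile normalization. AT3G11630, on the antioxidant list, read 3924 and 4423 in jaw-D and 4610 and 4906 in Columbia, a difference of -0.19 with both jaw-D arrays lower. It was 1 of 4 genes with a brighter second array in jaw-D, with AT1G74470, SBPASE and AT5G20290.

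CCL, a gene whose short-lived transcript follows the circadian clock, read 4367 and 3395 in jaw-D and 4030 and 5214 in Columbia. Its replicate step was the largest of the 37 in Columbia, at 0.37, with -0.36 in jaw-D, and its difference between genotypes was -0.25 (SE 0.21). Sampling time is not given in the sources used here. AT4G16190 and AILP1 were similar in their spread, with steps of -0.51 and -0.44 in jaw-D and differences of -0.13 and -0.08 between genotypes. AILP1 turned to 0.02 with quantile normalization.

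The remaining 5 genes had no pronounced difference and are described by their values. AT2G43030 was the steadiest of the 37 across arrays, at 4124 and 4042 in jaw-D and 4198 and 4183 in Columbia. AT2G45180 read 7414 and 5992 in jaw-D and 6352 and 6620 in Columbia, AT1G13930 had means of 7652 ± 1016 in jaw-D and 8200 ± 674 in Columbia (SD, n = 2 arrays each), CP5 had 5928 ± 756 in jaw-D and 5971 ± 224 in Columbia, and AT1G09310 had 5231 ± 592 in jaw-D and 4881 ± 112 in Columbia. Differences on the log2 scale were -0.04 for AT2G43030, 0.04 for AT2G45180, -0.10 for AT1G13930, -0.02 for CP5 and 0.10 for AT1G09310. With quantile normalization they were 0.06, 0.17, 0.02, 0.13 and 0.18.

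Genes on either side of the threshold were close in their Columbia readings, which the rule used, but not in jaw-D. Just inside it were AT5G20290, CCL and AT1G78040, whose lower Columbia readings were 4108, 4030 and 4021. Just outside it were AT1G73600, AT1G49750 and AT5G62350, whose lower Columbia readings were 3978, 3957 and 3883. Inside, the log2 differences were 0.25 for AT5G20290 and AT1G78040 and -0.25 for CCL. Outside, they were -0.19 for AT1G73600, -0.59 for AT1G49750 and 0.21 for AT5G62350, so both signs occurred on either side. AT1G49750 read 2748 and 2688 in jaw-D and 3957 and 4229 in Columbia. AT1G73600 read 3572 and 3435 in jaw-D and 4045 and 3978 in Columbia.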

How the data were processed

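The deposited values are linear probe-set signal intensities, a unit inferred from their range, and the authors had scaled the arrays to a common level: each array's mean without the lowest and highest 2% of rows is 200.0. The sources used here name no software or summary method and hold no detection calls. Genotype came from the sample description and replicate number from the title, with 0 columns unassigned. After leaving out 64 array controls, 22746 probe sets remained, of which 13513 are paired with 1 gene, 503 with several and 8730 with none in the annotation, and 13436 matched the TAIR10.1 gene table. Differences of log2(signal + 16), which understates changes of dim probe sets, were fitted in limma 3.58.1 (lmFit, eBayes) under R 4.3.3 (2 residual and 3.76 prior degrees of freedom), two-sided and adjusted over all probe sets. The fit was checked on simulated data. Figures used matplotlib 3.10.9. With 2 arrays against 2, the number of arrays limits precision.

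The genes and the 16 lists, with 190 genes of which 30 are named here, were chosen with earlier results of these data known. All 37 genes are named, so the naming rule (20 brightest, largest differences, largest jaw-D replicate steps, genes at the threshold and on lists) adds only the genes outside the set. A ribosomal protein list could not be formed, since the tables used here hold no gene descriptions, and promoter motifs were not analysed here. Aquaporins, myrosinase and glucosinolate breakdown, lipid transfer proteins, glycine-rich RNA-binding proteins, and translation factors and ubiquitin had 0 named genes. Of metallothioneins 1 was named, MT1C, whose log2 difference was -0.53 (adjusted p = 0.496 by limma), and of antioxidant enzymes AT3G52960 beside AT3G11630, with 0.11. The guard cell marker FAMA read 78.7 and 86.1 in jaw-D and 75.3 and 74.3 in Columbia. Alternatives were quantile normalization, median centring, a filter on dim probe sets, pseudocounts of 1 and 64, moderation with an intensity trend or robustly, a replicate block, each array left out in turn, thresholds of 3000 and 6000, genes in place of probe sets, and probe set designs that bind several transcripts left out.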

Additional observations from a re-analysis of the deposited data

How the results depend on the processing

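The count of genes called stayed at 0 under every setting run except 2: it was 1 (AT2G41090) when only the brighter 11375 probe sets were tested, and 1 with a threshold of 3000, which admits AT5G03350 among 57 genes. Counting genes in place of probe sets, or leaving out designs that bind several transcripts, kept the same 37. Those settings could not change a result. The replicate block gave 0 calls and a median difference of -0.171, and the deviations of arrays sharing a number correlated at -0.0743 over all probe sets, so the numbers were not taken to pair arrays. The median difference of -0.171, against an SD of 0.123 between replicate array medians, was -0.011 with quantile normalization, -0.036 when arrays were centred on the other bright probe sets (chosen after seeing the data), and -0.256 to -0.047 without 1 array. The count of 31 genes at or above the threshold on both jaw-D arrays was 12 of 19 with a threshold of 6000 and 44 of 57 with 3000. The share of summed signal, in percent, on jaw-D arrays 1 and 2 and Columbia arrays 1 and 2 was 4.82, 4.27, 4.86 and 5.21 with a threshold of 3000, and 2.37, 2.09, 2.37 and 2.59 with 6000, and on Columbia array 2 it was 3.72 with quantile normalization. Differences turned in sign for 11 genes with quantile normalization (0.05 for AT2G26500, 0.02 for AILP1 and AT1G13930, 0.01 for LHCB4.1, 0.12 for PRXR1, 0.10 for SAMDC, 0.03 for LHCB4.2, 0.06 for AT1G74470 and AT2G43030, 0.13 for CP5, 0.09 for AT1G54410) and for 4 with median centring (0.01 for PRXR1, SAMDC and CP5, 0.02 for AT1G54410). Without 1 array 13 turned, with ranges of -0.15 to 0.02 for AT2G26500, -0.38 to 0.12 for AT4G16190, -0.30 to 0.14 for AILP1, -0.16 to 0.14 for PRXR1, -0.15 to 0.13 for SAMDC, -0.27 to 0.00 for LHCB4.2, -0.02 to 0.19 for GAPC2, -0.37 to 0.00 for HPR, -0.24 to 0.03 for AT1G13930, -0.15 to 0.11 for CP5, -0.27 to 0.26 for AT1G54410, -0.02 to 0.21 for AT1G09310 and -0.11 to 0.19 for AT2G45180. None of these genes was called, and the cause was not tested. For 21 of the 37 the sign held in every setting run. The sources used here hold no detection calls, so no background level was set beside these signals.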
